A study of Homo sapiens with 12 samples.

Results

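Oxidative phosphorylation was followed in HBEC, an established line of human bronchial epithelial cells, through the nuclear genes for the subunits of complexes I to V and for the step that passes pyruvate into the mitochondrion's fuel supply. Genes were chosen by their current symbols alone. For complex I these were the NDUFA, NDUFB, NDUFC, NDUFS and NDUFV genes, and for complex II the SDH genes. For complex III they were the UQCR genes and CYC1, and for complex IV the COX5 to COX8 genes. Complex V was followed by the ATP5F, ATP5M and ATP5P genes, and the pyruvate step by PDK1 to PDK4, PDHA1 and PDHB. COX4I1 does not match this symbol rule and was counted among the subunits outside it. The rule found 85 genes among the 20046 named on the array, 35 in complex I, 3 in complex II, 9 in complex III, 15 in complex IV, 17 in complex V and 6 at the pyruvate step. SDHB and UQCRFS1 were not analysed here, and 2 pseudogenes and 1 antisense transcript that match the pattern were left out. The cells stably expressed EGFR, the receptor for epidermal growth factor, in the L858R form, in a form the labels call E746-E750 after a stretch of its kinase domain, or as wild type (WT). Each line was measured hypoxic, after 24 h at 0.1% oxygen, and aerobic, at 21% oxygen, with 5% CO2 in both. The medium, keratinocyte serum-free medium, was the same for all groups and held EGF at 0.2 ng/mL and pituitary extract from cattle at 30 μg/mL. The 6 groups, L858R hypoxic, L858R aerobic, E746-E750 hypoxic, E746-E750 aerobic, WT hypoxic and WT aerobic, held 2 arrays each. Each group thus carried an introduced EGFR, WT included, and cells without one were not among the arrays. Whether the 2 samples of a group were grown as separate cultures is not stated in the labels. P-values therefore measure no more than the spread between these arrays, and that spread may be technical.

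Complex I and complex II take electrons from NADH and succinate, complex III passes them to cytochrome c, and complex IV hands them to oxygen. The proton gradient that the chain builds drives complex V, the ATP synthase. Each complex other than complex II mixes subunits encoded in the nucleus with subunits encoded in mitochondrial DNA, and only nuclear genes were followed here. Pyruvate enters the citric acid cycle through the pyruvate dehydrogenase complex, whose first enzyme is built from PDHA1 and PDHB. The pyruvate dehydrogenase kinases, PDK1 to PDK4, phosphorylate that enzyme and switch it off, and PDK1 and PDK3 are known targets of HIF, the transcription factors that low oxygen stabilises.

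Values are log2 normalised intensities of the brightest kept probe of each gene. Each difference is given on that scale with its standard error (n = 2 arrays in every group, unless a fit leaves out an array). The test was limma's, with p-values adjusted over all 11926 genes tested, and "called" means that the adjusted p was below 0.05. Of the 85 genes, 77 had a probe detected on at least 2 of the 12 arrays and were tested. The 8 others were NDUFA5, NDUFS6, COX6A2, COX6B2, COX7A1, COX7B2, COX8C and PDK4. COX6A2 was detected on 1 array and the others on none. On the arrays 14159 to 18229 of 47323 probes were detected, and the upper quartile of raw intensity was 128 to 207. All 5 markers of basal airway epithelium with a probe (KRT5, KRT14, ITGA6, EPCAM and CDH1) were detected on every array. The leukocyte genes PTPRC and CD3E, the endothelial genes CDH5 and VWF and the fibroblast genes COL3A1 and DCN were detected on none, while CD14 was detected on all. The fibroblast gene COL1A1 was detected on 2 arrays at its brightest kept probe. The endothelial gene PECAM1 was detected on some array but had no kept probe. KRT14 fell by 1.25 on the log2 scale in hypoxic L858R cells (adjusted p = 0.013), and EPCAM rose by 0.82 there and by 0.75 in hypoxic E746-E750 cells (adjusted p = 0.0218 and 0.034). The fibroblast and mural cell gene PDGFRB was detected only on the 2 L858R hypoxic arrays and was at least 1.36-fold higher there than in aerobic L858R cells (adjusted p = 0.0139), and the part of these changes in the results was not tested. All 12 arrays shared a chip, with the aerobic samples in its first 6 positions and the hypoxic ones in its last 6, so chip position and oxygen cannot be told apart. The arrays read bulk RNA, in which fewer cells with a transcript and less of it per cell cannot be told apart.

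Some arrays stood apart, and the results are given with and without them. L858R hypoxic replicate 2 correlated with its replicate at 0.852 across genes, against 0.985 to 0.997 in the other 5 pairs. Between these 2 arrays 25 of the 77 genes differed by more than 1 log2 unit (32.5%), against 29.8% of all genes. Their widest gap was −5.28, for ATP5MC2. On the mutant hypoxic arrays the probes of a gene also moved apart. Of 20 genes followed here with at least 2 kept probes, the 2 brightest had diverged by more than 1 from their aerobic mean for 2 and 11 genes in hypoxic L858R cells, for 4 and 9 genes in hypoxic E746-E750 cells, for 1 gene on each WT hypoxic array and for 0 on each aerobic array. Among all 3213 genes with at least 2 kept probes the shares were 18.1% and 45.8%, 20.2% and 27.3%, and 3.08% and 2.68% in the same order. On the aerobic arrays they were at most 0.0311%. Replicate 1 also deviated from its group mean in a like way in the 2 mutant hypoxic groups (correlation 0.749 across genes). Agreement between these 2 groups may therefore not be independent. What separates these arrays was not tested.

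Most subunit transcripts did not pass the test under low oxygen, while PDK3, a kinase at the pyruvate step, rose in every line. In L858R cells 12 of the 77 genes were called, 3 higher and 9 lower, which is 15.6%, against 28.7% of all genes tested (16.1% higher and 12.6% lower). In E746-E750 cells 8 were called, 5 higher and 3 lower, which is 10.4%, against 27.1% of all genes (16% higher and 11.1% lower). In WT cells 4 were called, 2 higher and 2 lower, which is 5.19%, against 13.1% of all genes (5.37% higher and 7.71% lower). In this fit over all arrays the share called was below the background in each line, which did not hold without L858R hypoxic replicate 1, where 75.3% of the 77 genes were called in L858R cells, against 70.4% of all genes. The median difference was −0.15 in L858R cells (all genes 0.09), 0.04 in E746-E750 cells (all genes 0.10) and −0.03 in WT cells (all genes −0.03). PDK3 was the 1 gene called higher in all 3 lines, a pattern met by 3.2% of all genes, and 0 were called lower in all 3 (3.39% of all genes).

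The arrays that stand apart set much of these counts. Without L858R hypoxic replicate 2, 24 genes were called in L858R cells, 5 higher and 19 lower (46.9% of all genes), without its replicate 1 there were 58, 22 higher and 36 lower, and when the 4 L858R arrays were fitted alone limma called 0, with 6 at an unadjusted p under 0.05. Without the 2 L858R hypoxic arrays, 38 were called in E746-E750 cells, 17 higher and 21 lower (58.6% of all genes). Without the 4 mutant hypoxic arrays, 27 were called in WT cells, 12 higher and 15 lower (47.3% of all genes). The fits of L858R cells without hypoxic replicate 2, of E746-E750 cells without the 2 L858R hypoxic arrays and of WT cells without the 4 mutant hypoxic arrays are called the reduced fits. The shares of all genes given above for them, both directions together, are the background of each count from these fits below. Where a fit leaves 1 array in a group, as for hypoxic L858R cells here, the spread is taken from the other groups. Counts and calls for that group are then descriptive only. With median centring in place of quantile normalisation the count in E746-E750 cells became 27, 23 higher and 4 lower (37.1% of all genes called). The median of all genes there moved to 0.26. In WT cells the count became 5, 1 higher and 4 lower (19.7% of all genes called), with the median of all genes at −0.13.

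**Figure D1:**
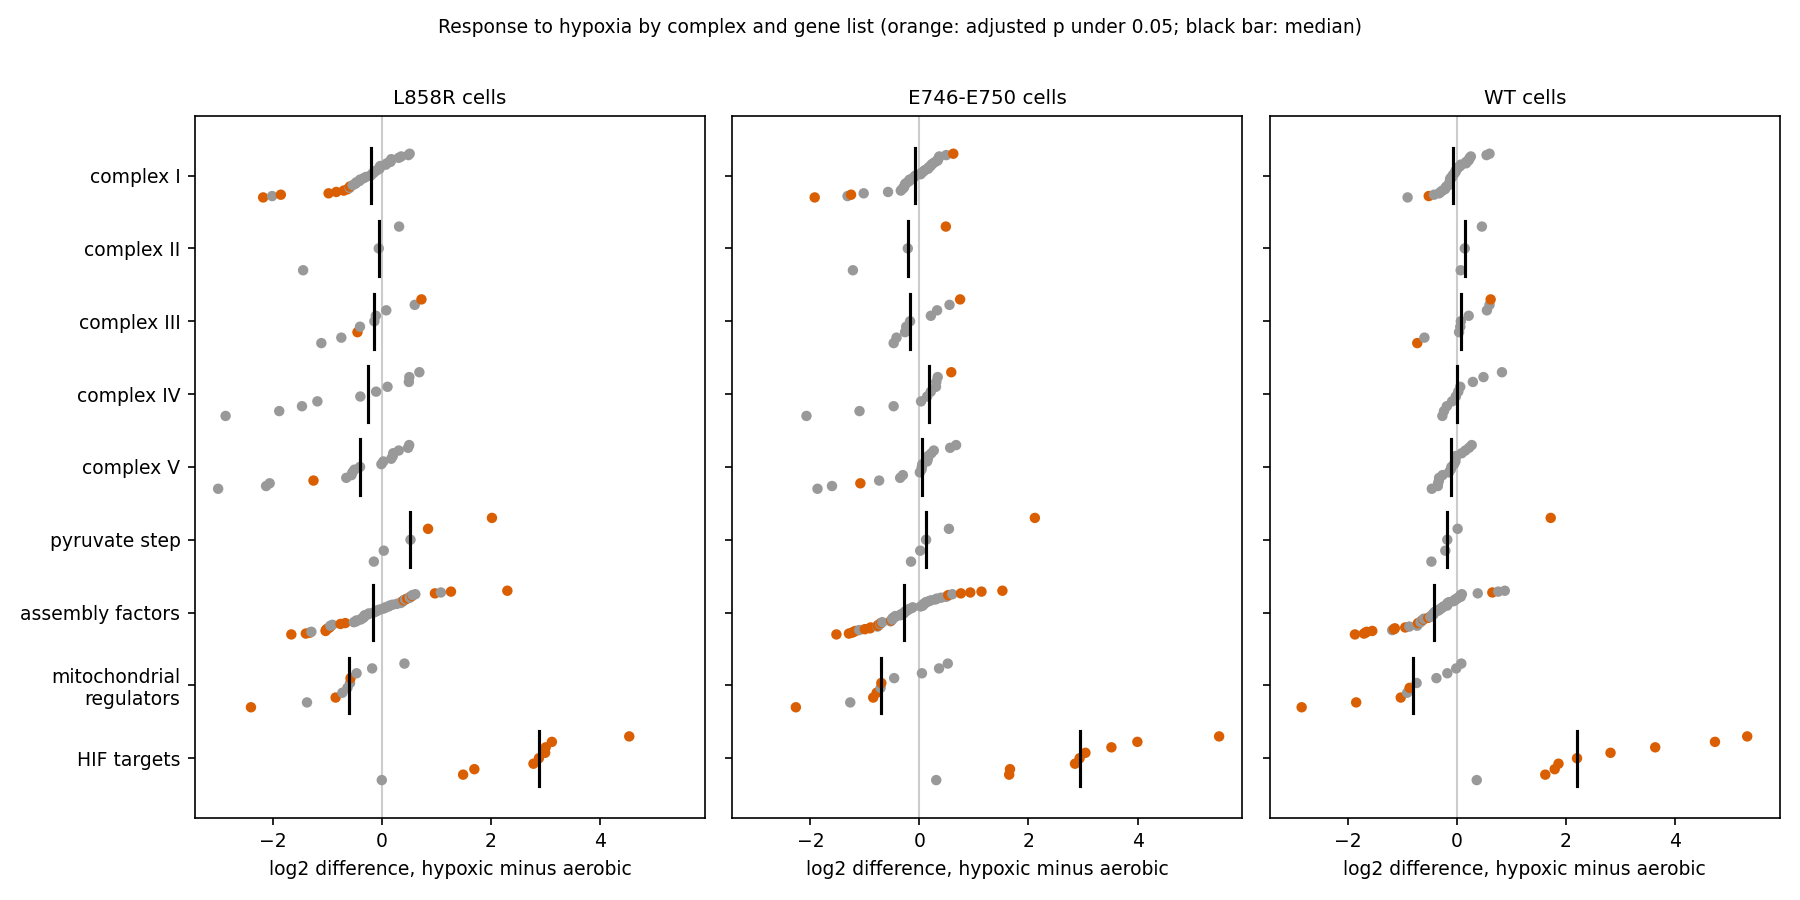
Log2 difference, hypoxic minus aerobic, of each tested gene in L858R, E746-E750 and WT cells (x axis, 2 arrays per group) by complex, at the pyruvate step and in 3 comparison lists (y axis), where orange marks an adjusted p under 0.05 and the black bar the median. The subunits of each complex lie on both sides of 0, except complex II in WT cells, PDK3 is the point farthest right at the pyruvate step, at 1.72 to 2.12, and 8 of the 9 HIF targets are orange in each line.

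At the pyruvate step PDK3, a kinase that blocks pyruvate dehydrogenase, was 4.05-fold higher in hypoxic L858R cells, 4.34-fold higher in hypoxic E746-E750 cells and 3.30-fold higher in hypoxic WT cells. It read 10.76 and 11.83 on the L858R hypoxic arrays, against 9.30 and 9.26 on the L858R aerobic arrays. E746-E750 cells had 11.10 and 11.26 hypoxic, against 9.07 and 9.06 aerobic. In WT cells the hypoxic arrays gave 10.64 and 10.71, against 8.92 and 8.98 on the aerobic ones. Every hypoxic array lay above every aerobic array, with a gap of more than 1 log2 unit. The differences were 2.02 ± 0.28 in L858R cells (adjusted p = 0.00124), 2.12 ± 0.28 in E746-E750 cells (adjusted p = 0.000944) and 1.72 ± 0.28 in WT cells (adjusted p = 0.00528). The call in both mutant lines survived leaving out any 1 array, and that in WT cells was lost without WT aerobic replicate 1 (adjusted p = 0.0515). Without L858R hypoxic replicate 2 the L858R difference was 1.48. The second PDK3 probe gave 0.29 in L858R cells, 0.41 in E746-E750 cells and 0.63 in WT cells and was not called in any of them (adjusted p = 0.479, 0.336 and 0.228), so the size of the PDK3 change depends on the probe.

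PDK1, the kinase most often tied to hypoxia, was close to the detection limit, and 4 arrays detected it, those of the 2 mutant hypoxic groups. It read 6.74 and 7.57 on the L858R hypoxic arrays, against 6.34 and 6.29 on the L858R aerobic arrays. In E746-E750 cells it read 6.50 and 6.78 hypoxic, against 5.98 and 6.22 aerobic, and in WT cells 6.30 and 6.42 hypoxic, against 6.41 and 6.29 aerobic. The hypoxic and aerobic values overlapped in WT cells and in neither mutant line. PDK1 was at least 1.71-fold higher in hypoxic L858R cells (adjusted p = 0.0345), a bound set by the detection level of the aerobic arrays. That call was lost without any 1 array other than the 2 L858R hypoxic ones (adjusted p up to 0.151). The difference in WT cells was 0.01 ± 0.25 (adjusted p = 0.986) and that in E746-E750 cells 0.54 ± 0.25 (adjusted p = 0.147). PDK2 was detected on 5 of the 12 arrays and spanned 6.15 to 6.53, with differences of −0.15 ± 0.14 in L858R cells, 0.01 ± 0.14 in E746-E750 cells and −0.18 ± 0.14 in WT cells, none called. PDK4, the kinase raised by fasting in other tissues, was detected on no array.

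The target of these kinases did not pass the test in any line. PDHA1, the subunit they phosphorylate, read 9.96 and 11.00 on the L858R hypoxic arrays, against 9.96 and 9.96 on the L858R aerobic arrays. It read 10.26 and 10.42 in hypoxic and 10.29 and 10.15 in aerobic E746-E750 cells, and 9.69 and 9.66 in hypoxic and 10.30 and 9.99 in aerobic WT cells. The WT hypoxic arrays were the lowest of the 12, and the highest was L858R hypoxic replicate 2. The differences were 0.52 ± 0.29 in L858R cells, 0.12 ± 0.29 in E746-E750 cells and −0.47 ± 0.29 in WT cells (adjusted p = 0.207, 0.799 and 0.382). Without the 4 mutant hypoxic arrays the WT difference of −0.47 was called (adjusted p = 0.00423). PDHB, its partner, had differences of 0.03, −0.15 and −0.21 in L858R, E746-E750 and WT cells, none called. In L858R cells its hypoxic arrays gave 10.97 and 12.13, and the difference was −0.55 without replicate 2 and 0.61 without replicate 1, each with 1 hypoxic array left. The L858R difference of PDHA1 depended on the same arrays, with −0.00 without replicate 2 and 1.05 without replicate 1.

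**Figure D2:**
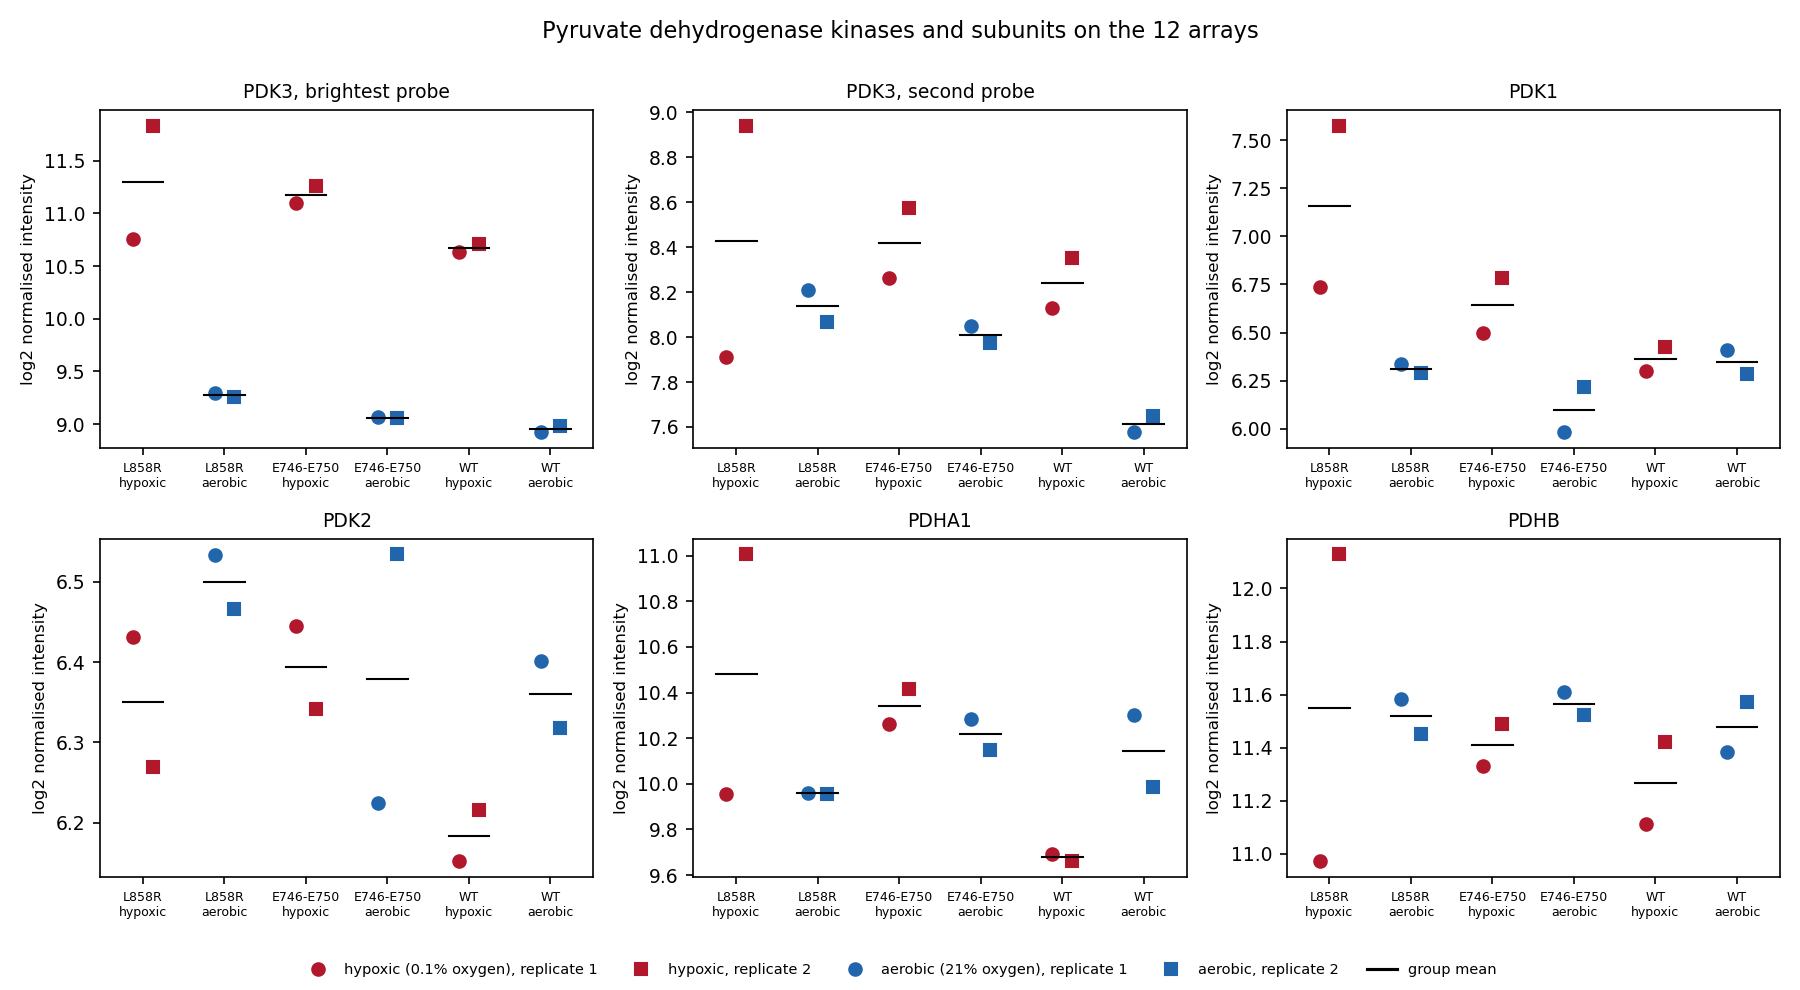
Log2 normalised intensity (y axis, its own scale in each panel) of both PDK3 probes, PDK1, PDK2, PDHA1 and PDHB on the 12 arrays by group (x axis), with circles for replicate 1, squares for replicate 2 and a bar for the group mean. The brightest PDK3 probe reads 10.64 to 11.83 on the 6 hypoxic arrays and 8.92 to 9.30 on the 6 aerobic arrays.

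Around these genes, the other 6 tested genes of the pyruvate step rose in 4 cases in L858R cells and in 1 case in E746-E750 cells, and 0 were called in WT cells, beside 16.1%, 16% and 5.37% of all genes that rose. In the reduced fits 4 were higher and 1 lower in L858R, 5 higher and 0 lower in E746-E750 and 2 higher and 1 lower in WT cells, so the order of the lines depends on the arrays fitted. MPC2, a subunit of the carrier that brings pyruvate through the inner membrane, rose by 1.36 ± 0.31 in L858R cells (adjusted p = 0.0117) and by 1.09 ± 0.31 in E746-E750 cells (adjusted p = 0.03). Its partner MPC1 rose by 0.99 ± 0.27 and PDHX, which docks the last enzyme of the complex, by 1.08 ± 0.26 in L858R cells (adjusted p = 0.0231 and 0.0152). PDP1, the phosphatase that undoes the kinases' mark, was at least 1.70-fold higher in L858R cells, where the aerobic arrays did not detect it. Of 9 HIF targets set beside them, 8 rose in each line, among them ENO2 at 4.54, 5.50 and 4.73 in L858R, E746-E750 and WT cells, and LDHA, which turns pyruvate into lactate, was not called (−0.00, 0.31 and 0.36). LDHA read 14.72 and 14.07 in hypoxic against 14.35 and 14.44 in aerobic L858R cells, and in the reduced fits all 9 HIF targets were called higher in each line, LDHA included.

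Promoter sequence around the start sites was searched for letters known from factors of hypoxia and of mitochondrial genes, and 4 windows that hold such letters are shown as examples. RefSeq promoters (GRCh38.p14, 250 bases before to 50 after a start) were at hand for 71 of the 85 genes, in 87 windows. 4 motifs were searched on both strands: ACGTG and GCGTG, the cores bound by HIF, CCGGAAGT, bound by ETS factors such as GABP, and GCATGCGC, the core of the NRF1 site, and the 2 orientations of a HIF core can overlap. ACGTG or its complement CACGT lay in 26.4% of the 87 windows, against 21.4% of all 35116, and either HIF core in 60.9%, against 48.4%. CCGGAAGT was found in 13.8% of the windows, against 4.14% of all, and GCATGCGC in 16.1%, against 3.05%. Of the 71 genes, 12 had CCGGAAGT, 13 had GCATGCGC and 3 (ATP5PF, COX5B and SDHD) had both. No gene at the pyruvate step had either of these 2 motifs. The windows were picked because they hold a match, and COX5B is 1 of the 3 genes with both. NDUFB7, the complex I gene with the largest fall in both mutant lines, has none of the 4 motifs in its window. The windows below show the HIF cores near PDK3, PDK1 (the second of its 2 listed starts) and ATP5MC1, and the NRF1 and ETS letters of COX5B, with each match in capitals, 5′ to 3′.
PDK3, chrX:24465036-24465335, plus strand: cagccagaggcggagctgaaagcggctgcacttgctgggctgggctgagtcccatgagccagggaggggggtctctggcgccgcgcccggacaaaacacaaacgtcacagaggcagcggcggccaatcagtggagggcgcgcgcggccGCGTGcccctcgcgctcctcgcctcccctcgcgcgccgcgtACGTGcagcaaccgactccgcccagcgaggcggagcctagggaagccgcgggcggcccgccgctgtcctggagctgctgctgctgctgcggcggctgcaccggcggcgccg
PDK1, chr2:172555840-172556139, plus strand: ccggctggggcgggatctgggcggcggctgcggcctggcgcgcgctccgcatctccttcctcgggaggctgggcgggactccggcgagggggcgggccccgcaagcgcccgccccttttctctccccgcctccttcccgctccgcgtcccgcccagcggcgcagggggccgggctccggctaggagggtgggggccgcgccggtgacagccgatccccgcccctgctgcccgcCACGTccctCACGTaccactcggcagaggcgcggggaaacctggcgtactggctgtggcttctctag
ATP5MC1, chr17:48892537-48892836, plus strand: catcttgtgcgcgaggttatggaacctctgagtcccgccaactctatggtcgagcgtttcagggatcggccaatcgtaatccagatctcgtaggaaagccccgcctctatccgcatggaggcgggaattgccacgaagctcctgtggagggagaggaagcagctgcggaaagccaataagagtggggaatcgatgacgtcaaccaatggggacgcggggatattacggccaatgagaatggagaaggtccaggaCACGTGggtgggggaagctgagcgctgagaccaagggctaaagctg
COX5B, chr2:97645812-97646111, plus strand: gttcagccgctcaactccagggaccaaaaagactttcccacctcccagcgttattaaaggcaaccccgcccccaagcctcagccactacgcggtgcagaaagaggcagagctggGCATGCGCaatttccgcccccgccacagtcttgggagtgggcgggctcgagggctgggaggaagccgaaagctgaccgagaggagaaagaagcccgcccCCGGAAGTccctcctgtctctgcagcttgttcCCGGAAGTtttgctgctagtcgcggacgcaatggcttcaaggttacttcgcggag
In PDK3 the match to GCGTG begins 102 and that to ACGTG 61 bases before the start. PDK1 has CACGT 17 and 8 bases before its start. In ATP5MC1 the 2 orientations overlap as CACGTG, 4 bases after the start. COX5B has GCATGCGC 136 bases and CCGGAAGT 37 and 5 bases before its start. A match is a description of the letters and not a measured binding site.

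Complex I takes electrons from NADH through a peripheral arm built on the NDUFS and NDUFV core subunits, and most NDUFA and NDUFB genes encode accessory subunits. In hypoxic L858R cells 7 of its 33 tested genes fell and 0 rose. In hypoxic E746-E750 cells 2 fell and 1 rose, and in hypoxic WT cells 1 fell and 0 rose. Of all genes 12.6%, 11.1% and 7.71% fell and 16.1%, 16% and 5.37% rose in the same lines. In the reduced fits complex I had 0 higher and 10 lower in L858R, 5 higher and 9 lower in E746-E750 and 3 higher and 5 lower in WT cells. The median differences were −0.21 in L858R cells, −0.07 in E746-E750 cells and −0.08 in WT cells.

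NDUFB7, an accessory subunit of the membrane arm, showed the largest fall of the complex in both mutant lines. It read 9.89 and 8.74 on the L858R hypoxic arrays, against 11.50 and 11.50 on the L858R aerobic arrays. E746-E750 cells had 9.65 and 9.41 hypoxic, against 11.55 and 11.36 aerobic. WT cells had 11.24 and 11.27 hypoxic, against 11.40 and 11.14 aerobic. The 4 mutant hypoxic arrays lay more than 1 log2 unit below the other 8, among which hypoxic and aerobic values overlapped. The differences were −2.18 ± 0.31 in L858R cells (adjusted p = 0.00134), −1.92 ± 0.31 in E746-E750 cells (adjusted p = 0.00251) and −0.02 ± 0.31 in WT cells (adjusted p = 0.985). Both mutant calls survived leaving out any 1 array. NDUFB7 has 1 kept probe, so whether a second probe would fall with it was not tested.

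NDUFV2, which carries an iron-sulfur cluster in the NADH-binding module, read 10.53 and 10.73 in hypoxic and 11.45 and 11.48 in aerobic L858R cells. Its values were 10.78 and 10.99 in hypoxic and 11.12 and 11.29 in aerobic E746-E750 cells, and 11.01 and 10.93 in hypoxic and 11.06 and 11.32 in aerobic WT cells. The hypoxic arrays lay below the aerobic ones in each line. The fall was called in L858R cells, at −0.84 ± 0.15 (adjusted p = 0.004), also with any 1 array left out, and the differences of −0.32 and −0.22 in E746-E750 and WT cells were not called (adjusted p = 0.155 and 0.437). NDUFV3, an accessory subunit of the same module, read 7.03 and 6.06 in hypoxic and 7.35 and 7.70 in aerobic L858R cells, 6.52 and 5.98 in hypoxic and 7.51 and 7.49 in aerobic E746-E750 cells, and 6.69 and 6.72 in hypoxic and 7.60 and 7.62 in aerobic WT cells. In every line both hypoxic values were below both aerobic ones, and 1 of the 2 arrays detected it in each mutant hypoxic group. The differences were −0.98 ± 0.30 in L858R cells (adjusted p = 0.0399), −1.25 ± 0.30 in E746-E750 cells (adjusted p = 0.0153) and −0.90 ± 0.30 in WT cells (adjusted p = 0.0892). The second NDUFV3 probe gave 0.62, 0.05 and −0.19 in the same order, none called. Without L858R hypoxic replicate 2 the L858R difference was −0.49 and not called, and that call was also lost without any 1 of the 6 aerobic or the 2 WT hypoxic arrays (adjusted p up to 0.214). The E746-E750 call was lost without either aerobic array of that line or its hypoxic replicate 2 (adjusted p up to 0.123).

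The other calls in complex I were smaller. NDUFS1, the largest core subunit, differed by −0.59 ± 0.15 in L858R cells (adjusted p = 0.0197) and was not called in E746-E750 (−0.28) or WT cells (−0.30). NDUFA12, an accessory subunit, differed by −0.63 ± 0.14 in L858R cells (adjusted p = 0.012). Both of these calls were lost without L858R aerobic replicate 1 or 2 (adjusted p up to 0.123 and 0.0926). NDUFB3, an accessory subunit of the membrane arm, differed by −0.70 ± 0.21 (adjusted p = 0.034) and its second probe by −0.71 (adjusted p = 0.00888), while in E746-E750 cells it gave −0.58 (adjusted p = 0.0718). NDUFA3, a small membrane-arm subunit, differed by −1.86 ± 0.60 (adjusted p = 0.0485), with 11.56 and 9.21 in hypoxic against 12.17 and 12.31 in aerobic L858R cells, and by −0.68 without L858R hypoxic replicate 2. In E746-E750 cells NDUFC1, an accessory subunit, rose by 0.62 ± 0.13 (adjusted p = 0.00872), with 10.30 and 10.38 hypoxic against 9.74 and 9.70 aerobic. That call was lost without either aerobic array of the line or its hypoxic replicate 2 (adjusted p up to 0.0664). In WT cells NDUFB2 fell by 0.52 on the log2 scale (adjusted p = 0.0448), with 11.72 and 11.99 hypoxic against 12.38 and 12.36 aerobic, where both mutant lines gave 0.07. The calls of NDUFA3 and NDUFB3 in L858R cells and of NDUFB2 in WT cells were each lost without any 1 array other than the 2 L858R hypoxic ones (adjusted p up to 0.184, 0.143 and 0.268). None of the 24 other tested genes of the complex was called in any line in the fit over all arrays.

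**Figure D3:**
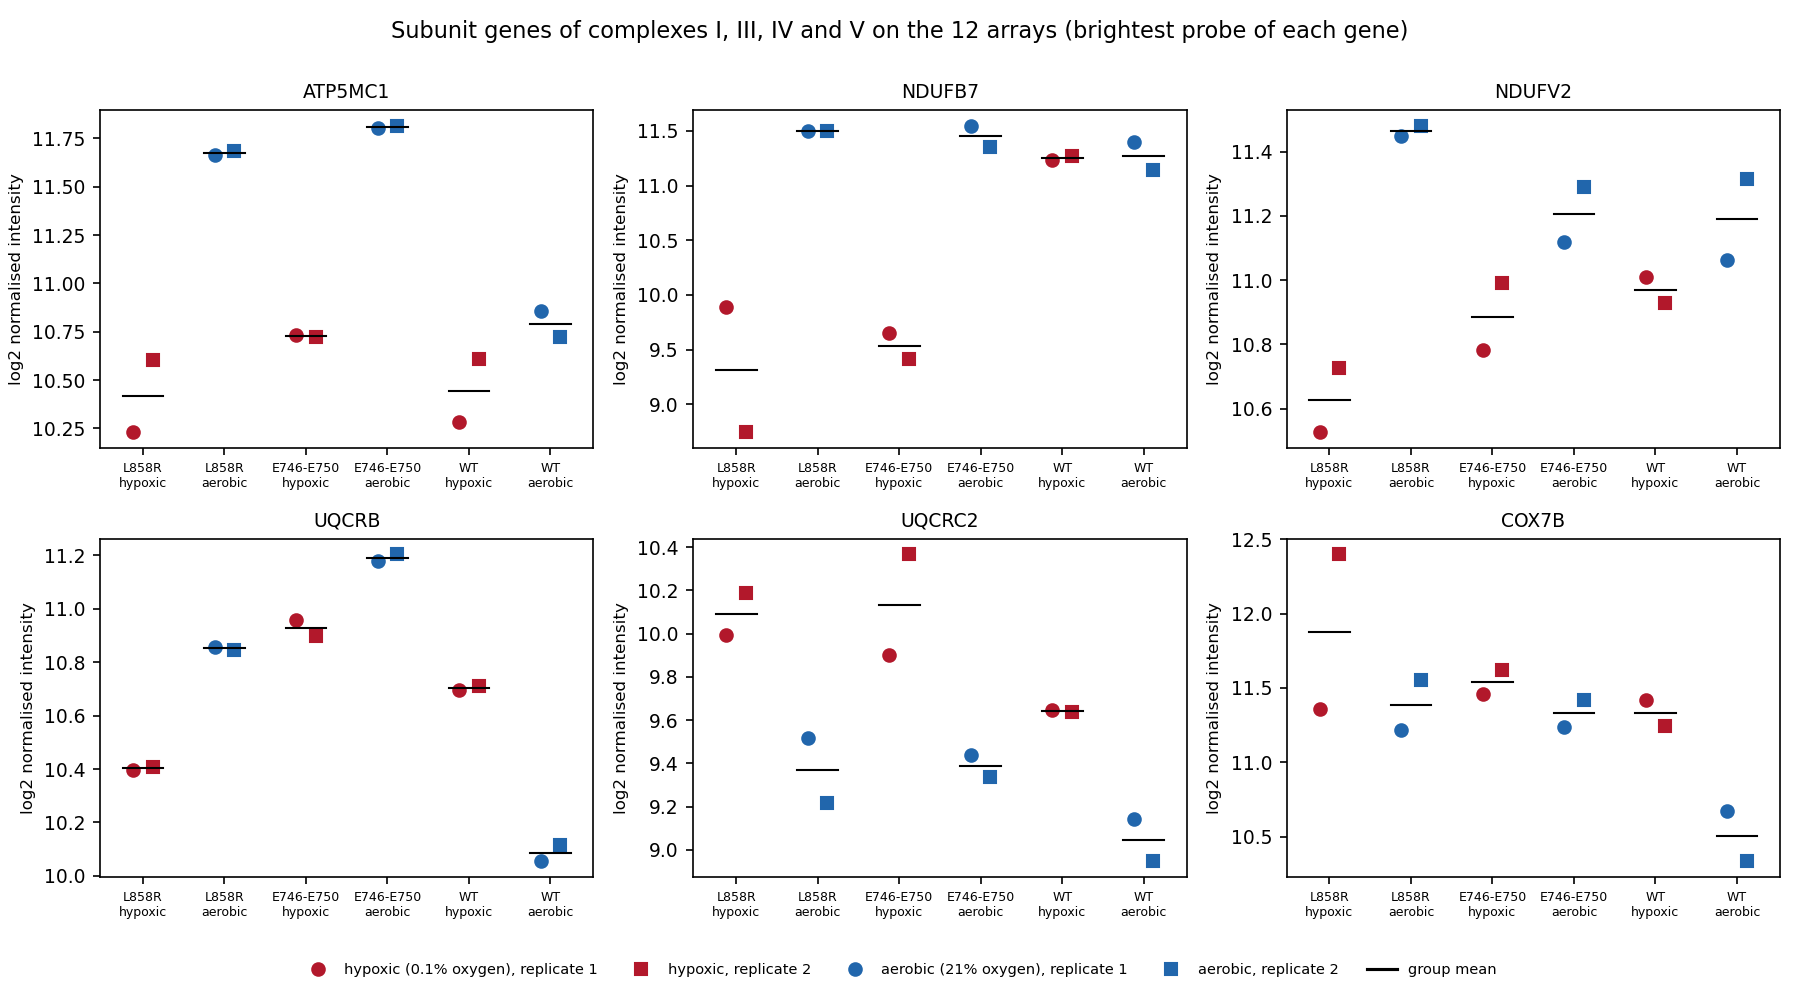
Log2 normalised intensity (y axis, its own scale in each panel) of ATP5MC1, NDUFB7, NDUFV2, UQCRB, UQCRC2 and COX7B on the 12 arrays by group (x axis), with circles for replicate 1, squares for replicate 2 and a bar for the group mean. NDUFB7 is at 8.74 to 9.89 on the 4 mutant hypoxic arrays and at 11.14 to 11.55 on the other 8, ATP5MC1 is highest on the 4 mutant aerobic arrays, and UQCRB is lowest on the 2 WT aerobic arrays.

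Complex II, which is also the citric acid cycle enzyme succinate dehydrogenase, had no call in hypoxic L858R or WT cells and 1 in hypoxic E746-E750 cells, where 27.1% of all genes were called. The reduced fits gave 0 higher and 1 lower in L858R, 1 higher and 1 lower in E746-E750 and 1 higher and 0 lower in WT cells. SDHA, its flavoprotein, read 11.25 and 11.48 in hypoxic and 10.80 and 10.96 in aerobic E746-E750 cells, 11.16 and 11.43 in hypoxic and 10.95 and 11.01 in aerobic L858R cells, and 10.63 and 10.64 in hypoxic and 10.66 and 10.48 in aerobic WT cells. Its difference was 0.48 ± 0.15 in E746-E750 cells (adjusted p = 0.0441), 0.31 ± 0.15 in L858R cells and 0.07 ± 0.15 in WT cells. The call was lost without any 1 array other than the 2 L858R hypoxic ones (adjusted p up to 0.251). The second SDHA probe went the other way in E746-E750 cells, by −2.67 ± 0.68 (adjusted p = 0.0192), so the direction for SDHA is not settled there. SDHC, a membrane anchor, read 10.04 and 8.03 in hypoxic against 10.50 and 10.46 in aerobic L858R cells, with a difference of −1.45 ± 0.52 (adjusted p = 0.0696), and its second probe gave 0.07. Its difference was −1.22 in E746-E750 cells and 0.46 in WT cells, not called, and without the 4 mutant hypoxic arrays the WT difference was called (adjusted p = 0.00187). SDHD, the other anchor, gave −0.06, −0.21 and 0.14 in L858R, E746-E750 and WT cells, none called. Its L858R difference was 0.37 without L858R hypoxic replicate 1, against −0.49 without replicate 2, each with 1 hypoxic array left.

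Complex III passes electrons from ubiquinol to cytochrome c. Of its 9 tested genes, 1 rose and 1 fell in hypoxic L858R cells, 1 rose in hypoxic E746-E750 cells, and 1 rose and 1 fell in hypoxic WT cells, beside 28.7%, 27.1% and 13.1% of all genes called. The reduced fits gave 2 higher and 2 lower in L858R, 3 higher and 3 lower in E746-E750 and 3 higher and 2 lower in WT cells. UQCRC2, a core protein of its matrix side, read 10.00 and 10.19 in hypoxic and 9.52 and 9.22 in aerobic L858R cells, 9.90 and 10.37 in hypoxic and 9.44 and 9.34 in aerobic E746-E750 cells, and 9.65 and 9.64 in hypoxic and 9.14 and 8.95 in aerobic WT cells. In each line both hypoxic arrays were higher. The differences were 0.72 ± 0.19 in L858R cells (adjusted p = 0.0198), 0.75 ± 0.19 in E746-E750 cells (adjusted p = 0.0179) and 0.60 ± 0.19 in WT cells (adjusted p = 0.0713), and without the 4 mutant hypoxic arrays the WT value was called as well (adjusted p = 0.000904). The L858R call was lost without L858R aerobic replicate 2 (adjusted p = 0.149), and the E746-E750 call without either aerobic array of that line or its hypoxic replicate 2 (adjusted p up to 0.135).

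UQCRB, a subunit at the ubiquinone-binding side, moved in opposite directions in the lines. It read 10.40 and 10.41 in hypoxic against 10.86 and 10.85 in aerobic L858R cells, and 10.96 and 10.90 in hypoxic against 11.18 and 11.20 in aerobic E746-E750 cells. In WT cells it read 10.70 and 10.71 hypoxic, against 10.05 and 10.12 aerobic. Replicates of a group differed by less than 0.1, and the hypoxic and aerobic arrays did not overlap in any line. UQCRB fell by 0.45 on the log2 scale in L858R cells (adjusted p = 0.0168), gave −0.26 ± 0.11 in E746-E750 cells (adjusted p = 0.115) and rose by 0.62 ± 0.11 in WT cells (adjusted p = 0.00783). The L858R call was lost without either L858R aerobic array (adjusted p up to 0.102) and the WT call without any 1 WT array (adjusted p up to 0.0814). The second UQCRB probe gave 0.28, 0.26 and 0.28 in L858R, E746-E750 and WT cells, none called, so the opposite signs rest on the brighter probe. UQCR11, a small subunit, fell by 0.73 on the log2 scale in WT cells (adjusted p = 0.028), with 6.87 and 7.10 hypoxic against 7.84 and 7.59 aerobic, and gave −0.14 and −0.17 in L858R and E746-E750 cells. That call was lost without any 1 of 8 arrays, the 4 WT, the 2 L858R aerobic and the 2 E746-E750 hypoxic ones (adjusted p up to 0.205). CYC1, cytochrome c1 itself, gave −0.75, −0.24 and −0.60 in L858R, E746-E750 and WT cells, none called, and the WT value was called without the 4 mutant hypoxic arrays (adjusted p = 0.000237). UQCRH and UQCRHL are near-identical copies whose probes may read each other's transcripts, and their values are uncertain.

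Complex IV reduces oxygen to water. Of its 10 tested genes 0 were called in hypoxic L858R cells, 1 rose in hypoxic E746-E750 cells and 0 were called in hypoxic WT cells, beside 28.7%, 27.1% and 13.1% of all genes. The reduced fits gave 0 higher and 1 lower in L858R, 4 higher and 3 lower in E746-E750 and 3 higher and 1 lower in WT cells. In WT cells these were COX6A1 (0.29), COX6B1 (0.49) and COX7B (0.83), higher, and COX7A2L (−0.27), lower, with adjusted p = 0.0292, 0.00379, 0.000324 and 0.0486. COX6A1, the form of subunit VIa found in most tissues, read 12.24 and 12.58 in hypoxic against 11.85 and 11.81 in aerobic E746-E750 cells. It rose there by 0.58 ± 0.15 (adjusted p = 0.0187), a call lost without either aerobic array of the line or its hypoxic replicate 2 (adjusted p up to 0.142), and gave 0.10 in L858R and 0.29 in WT cells. Its muscle counterpart COX6A2 was not tested, nor were COX6B2, COX7A1, COX7B2 and COX8C, the forms known from testis or muscle. COX7A2, the counterpart of COX7A1 outside muscle, gave −0.40, 0.03 and 0.06 in L858R, E746-E750 and WT cells, and COX7A2L, which helps join complexes III and IV, gave −1.19, 0.31 and −0.27, none called in the fit over all arrays. In the reduced fit of E746-E750 cells its 0.31 was called too (adjusted p = 0.0313). COX6B1, a subunit at the cytochrome c side, had the lowest value of the 77 genes in E746-E750 cells, at −2.07 ± 0.98 (adjusted p = 0.158). It read 11.16 and 7.36 in hypoxic L858R cells and 10.95 and 9.56 in hypoxic E746-E750 cells, against 11.62 to 12.40 on the other 8 arrays. Without the 2 L858R hypoxic arrays its fall in E746-E750 cells was called (adjusted p = 0.000175), as was that of COX8A (−1.10, adjusted p = 8.51e-05). COXFA4L2, the subunit gene long called NDUFA4L2 and known as a hypoxia-induced gene, falls outside the symbol rule. It was detected on 5 of the 12 arrays and was not called in any line in the fit over all arrays. In WT cells it read 6.80 and 7.05 hypoxic, against 6.47 and 6.42 aerobic, a difference of 0.48. It read 6.17 and 6.40 in hypoxic against 6.25 and 6.42 in aerobic L858R cells. E746-E750 cells gave 6.18 and 6.34 hypoxic, against 6.04 and 6.31 aerobic.

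Complex V uses the proton gradient to make ATP. Of its 17 tested genes 1 fell in hypoxic L858R cells, 1 fell in hypoxic E746-E750 cells, 0 were called in hypoxic WT cells and 0 rose in any line, beside 12.6%, 11.1% and 7.71% of all genes that fell. The reduced fits gave 1 higher and 4 lower in L858R, 2 higher and 5 lower in E746-E750 and 1 higher and 6 lower in WT cells. The gene called in both mutant lines was ATP5MC1, 1 of 3 genes for the same mature subunit c of the rotor ring. It read 10.23 and 10.61 in hypoxic against 11.66 and 11.68 in aerobic L858R cells, and 10.73 and 10.72 in hypoxic against 11.81 and 11.82 in aerobic E746-E750 cells. In WT cells it read 10.28 and 10.61 hypoxic, against 10.86 and 10.72 aerobic. The 4 mutant aerobic arrays were the highest, and the hypoxic arrays of all lines lay between 10.23 and 10.73. The differences were −1.26 ± 0.16 in L858R cells (adjusted p = 0.000875), −1.08 ± 0.16 in E746-E750 cells (adjusted p = 0.00178) and −0.35 ± 0.16 in WT cells (adjusted p = 0.236). Both mutant calls survived leaving out any 1 array. The second ATP5MC1 probe was called too, at −1.11 ± 0.24 in L858R cells (adjusted p = 0.0102) and −1.63 ± 0.24 in E746-E750 cells (adjusted p = 0.00153).

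The other 2 genes for subunit c were not called at their brightest probe. ATP5MC2 read 12.27 and 6.99 in hypoxic against 12.60 and 12.67 in aerobic L858R cells, and 11.80 and 10.24 in hypoxic against 12.63 and 12.61 in aerobic E746-E750 cells. With so wide a gap between replicates its differences of −3.01 ± 1.33 and −1.60 ± 1.33 were not called (adjusted p = 0.124 and 0.418), and WT cells gave −0.15. Its second probe fell by 0.82 on the log2 scale in L858R and by 0.94 in E746-E750 cells (adjusted p = 0.0101 and 0.00516). That probe was near the noise, at 5.70 to 6.13 on the 4 mutant hypoxic arrays and 6.42 to 6.98 on the others. PDK4, detected on no array, read 5.87 to 6.19. ATP5MC3 gave −0.51, −0.74 and −0.33 in L858R, E746-E750 and WT cells (adjusted p = 0.148, 0.0508 and 0.475). Without the 4 mutant hypoxic arrays its WT difference was called (adjusted p = 0.0135), and so was that of ATP5MC1 (adjusted p = 0.024). The catalytic head subunits ATP5F1A and ATP5F1B gave −0.54 and 0.02 in L858R cells, 0.22 and 0.01 in E746-E750 cells and −0.33 and −0.46 in WT cells, none called. Without the 4 mutant hypoxic arrays both were called lower in WT cells (adjusted p = 0.0166 and 0.00192).

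For several subunits the 2 brightest probes of a gene went different ways on the mutant hypoxic arrays and stayed together on the rest. This was not particular to the subunits: on those arrays 18.1% to 45.8% of all 3213 genes with at least 2 kept probes had diverged by more than 1. The second NDUFA10 probe read 8.22 and 7.60 in hypoxic L858R cells and 7.49 and 6.79 in hypoxic E746-E750 cells, against 9.30 to 9.68 on the other 8. It fell by 1.68 on the log2 scale in L858R cells (adjusted p = 0.00215) and by 2.34 in E746-E750 cells (adjusted p = 0.000374), where the brightest probe gave −0.41 and 0.17. The second SDHA probe read 9.75 and 7.23 in hypoxic L858R cells and 8.13 and 7.12 in hypoxic E746-E750 cells, against 10.06 to 10.51 on the other 8 arrays. ATP5PB, the stator subunit b, had 10.56 and 6.82 in hypoxic L858R cells and 10.29 and 8.58 in hypoxic E746-E750 cells at the second probe, against 10.83 to 11.40 elsewhere, while the brightest probe stayed between 12.39 and 13.3. The probes' positions in the transcripts were not analysed here. By contrast, both probes of NDUFB6 and of ATP5MF gave differences within 0.3 of each other in every line.

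**Figure D4:**
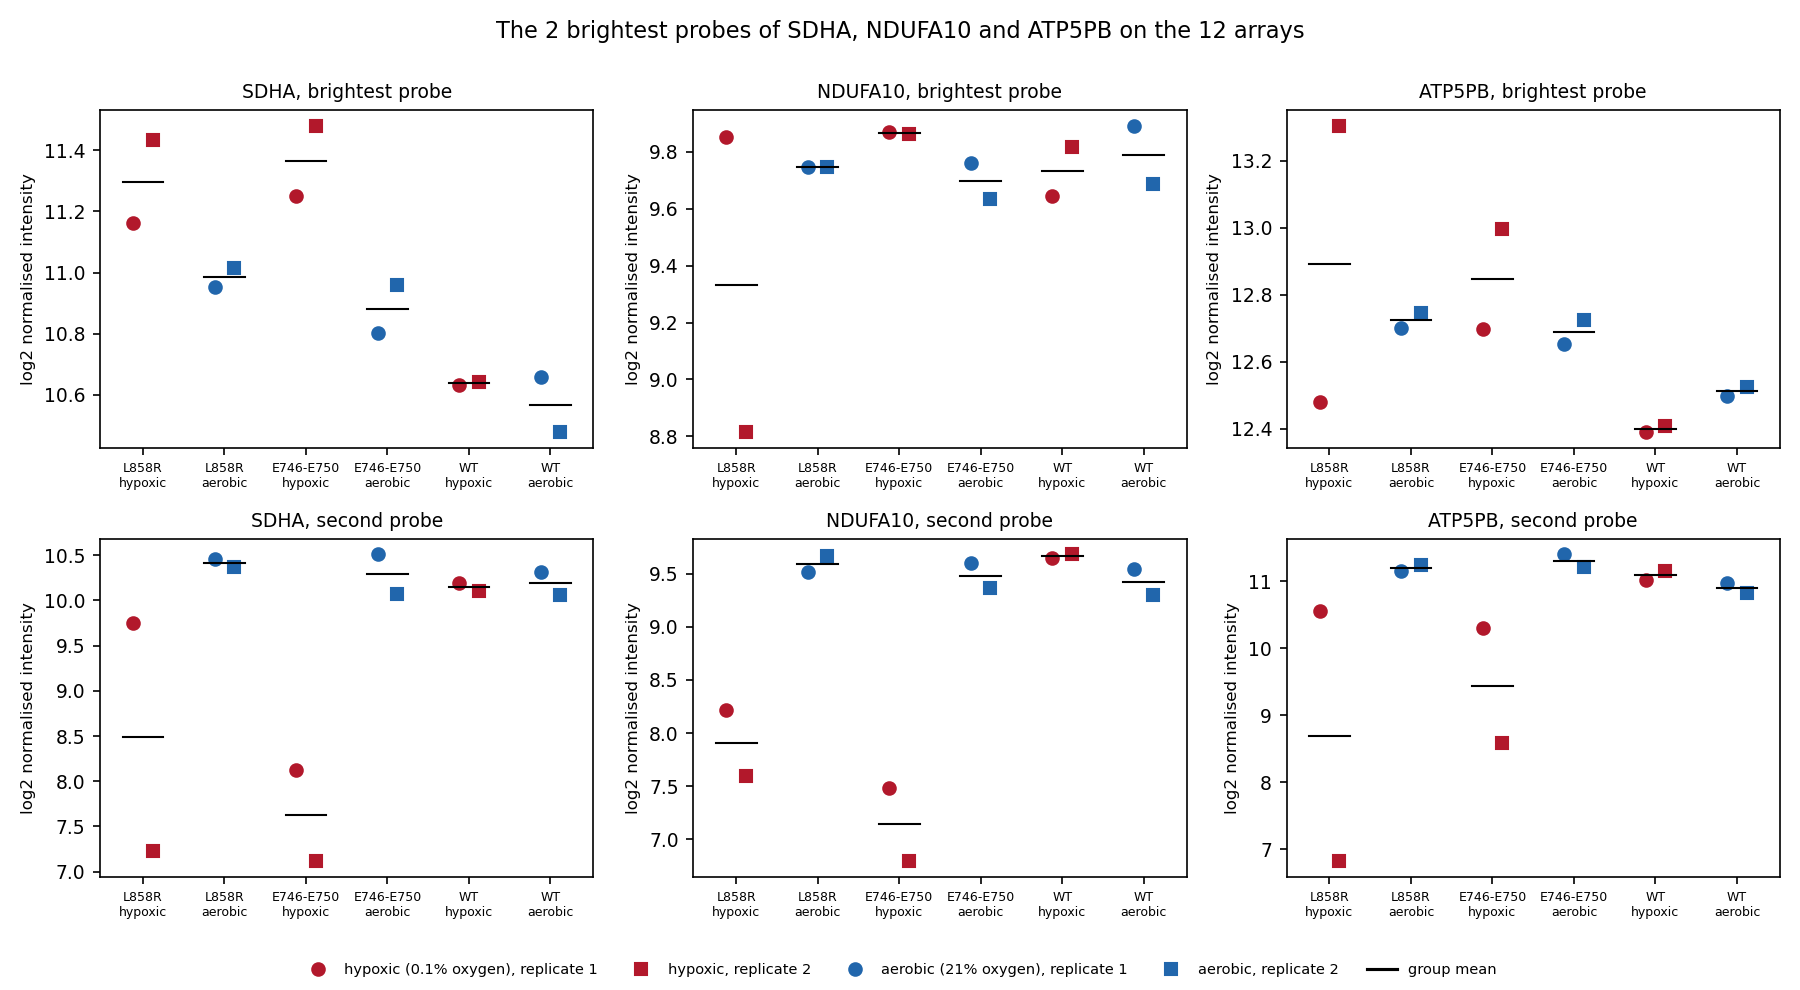
Log2 normalised intensity (y axis, its own scale in each panel) of the brightest (top) and the second (bottom) probe of SDHA, NDUFA10 and ATP5PB on the 12 arrays by group (x axis), with circles for replicate 1, squares for replicate 2 and a bar for the group mean. The second probes of all 3 genes are lower on the 4 mutant hypoxic arrays than on the other 8, and the brightest probes are not.

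Genes that assemble the complexes, and genes that regulate mitochondrial gene expression, were counted beside the subunits. Of 51 assembly factors tested, 6 rose and 11 fell in hypoxic L858R cells, 5 rose and 12 fell in hypoxic E746-E750 cells, and 1 rose and 11 fell in hypoxic WT cells. That is 33.3%, 33.3% and 23.5% called, beside the backgrounds of 28.7%, 27.1% and 13.1%. Their medians were −0.16, −0.28 and −0.42 in L858R, E746-E750 and WT cells, against 0.09, 0.10 and −0.03 for all genes. NDUFAF4, ACAD9, BCS1L, COA4, COA7 and SCO1 fell in all 3 lines, 6 of the 51, as did 3.39% of all genes. SCO1, which delivers copper to complex IV, fell by 1.03 in L858R, by 1.17 in E746-E750 and by 1.65 in WT cells on the log2 scale (adjusted p = 0.00124, 0.000632 and 0.000242). NDUFAF4, a complex I assembly factor, fell by 1.02 and 1.52 in L858R and E746-E750 cells and was at least 3.39-fold lower in hypoxic WT cells, where it was not detected. COX19, another copper factor, rose by 2.30 in L858R and 1.52 in E746-E750 cells (adjusted p = 0.000734 and 0.00537). Without the 2 L858R hypoxic arrays the count in E746-E750 cells was 11 higher and 24 lower (58.6% of all genes called). Without the 4 mutant hypoxic arrays that in WT cells was 4 higher and 31 lower (47.3% of all genes called).

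Of 10 regulators tested, 0 rose and 3 fell in hypoxic L858R cells, 0 rose and 4 fell in hypoxic E746-E750 cells, and 0 rose and 4 fell in hypoxic WT cells. Of all genes 12.6%, 11.1% and 7.71% fell in the same lines. The medians of the regulators were −0.61, −0.71 and −0.80 in the same order, against 0.09, 0.10 and −0.03 for all genes. Without the 2 L858R hypoxic arrays the E746-E750 count was 1 higher and 6 lower (58.6% of all genes called). Without the 4 mutant hypoxic arrays the WT count was 0 higher and 7 lower (47.3% of all genes called). PPRC1, a coactivator of the PGC-1 family, fell by 2.40 in L858R, by 2.27 in E746-E750 and by 2.85 in WT cells on the log2 scale (adjusted p = 0.000264, 0.000315 and 0.000218). TFB2M, needed to start transcription of mitochondrial DNA, differed by −0.85, −0.78 and −1.85 in the same lines (adjusted p = 0.0232, 0.0337 and 0.00129), and GABPB1, a subunit of the ETS factor GABP, by −0.58, −0.85 and −1.03 (adjusted p = 0.00802, 0.00123 and 0.000976). These 3 fell in all 3 lines, as did 3.39% of all genes. The citric acid cycle list of 10 tested genes had 0 called in L858R cells, 1 in E746-E750 cells (DLST, 0.59 ± 0.15, adjusted p = 0.0206) and 0 in WT cells. Of all genes 28.7%, 27.1% and 13.1% were called in these lines. Of 6 tested subunits outside the symbol rule, ATP5IF1, the inhibitor that stops ATP synthase from running backwards, rose by 1.33 ± 0.22 in L858R and by 1.07 ± 0.22 in E746-E750 cells (adjusted p = 0.0029 and 0.00799). DMAC2L, a coupling factor of the synthase, fell by 1.42 in L858R cells (adjusted p = 0.00562), and 0 of the 6 were called in WT cells.

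The mutant lines were then set against WT at 21% oxygen, with the same 2 WT arrays in both comparisons. In L858R cells 0 of the 77 genes were called by limma (8 at an unadjusted p under 0.05), against 0.0252% of all genes (0.00839% higher and 0.0168% lower). In E746-E750 cells 1 was called, UQCRB, against 0.277% of all genes (0.117% higher and 0.159% lower). It averaged 11.19 ± 0.02 in E746-E750 and 10.09 ± 0.04 in WT aerobic cells (SD), a difference of 1.11 ± 0.11 (adjusted p = 0.0183), and L858R cells gave 0.77 ± 0.11 (adjusted p = 0.0778). The E746-E750 call was lost without any 1 array other than the 2 L858R hypoxic ones (adjusted p up to 0.301), and the second probe gave 0.31. The median difference of the 77 genes was 0.14 in L858R and 0.17 in E746-E750 cells, against −0.00 and −0.02 for all genes, with 58 and 60 of the 77 above 0. Under median centring the E746-E750 median was −0.06, beside −0.22 for all genes, and the L858R median was 0.22, beside 0.02. The sign of the E746-E750 median thus depends on the scaling, while both medians stayed above that of all genes.

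The pooled spread in these comparisons includes the 4 mutant hypoxic arrays, and without them 13 genes were called in L858R and 19 in E746-E750 cells, all higher (11.5% and 17.8% of all genes called). They came from every complex. In L858R cells 4 of 33 complex I genes, 2 of 3 in complex II, 2 of 9 in complex III, 2 of 10 in complex IV, 2 of 17 in complex V and 1 of 5 at the pyruvate step (PDK3, by 0.33) were higher. In E746-E750 cells the counts were 8, 1, 3, 3, 4 and 0. ATP5MC1 was higher by 0.88 in L858R and by 1.02 in E746-E750 cells (adjusted p = 0.000474 and 0.000104 in that fit), and its second probe differed by 0.36 and 0.50. Among the others, COX7B, a small subunit of complex IV, read 11.22 and 11.55 in L858R and 11.24 and 11.42 in E746-E750 aerobic cells, against 10.67 and 10.34 in WT aerobic cells, and UQCR10, a small subunit of complex III, differed by 0.57 and 0.77 at its brightest probe, against −0.07 and 0.17 at the second and 0.03 and 0.06 at the third. NDUFB3 differed by 0.66 and 0.60 and NDUFB6 by 0.48 and 0.66, in complex I, with the second probe of each within 0.1 of these values. NDUFB9, another complex I accessory subunit, differed by 0.92 in E746-E750 and by 0.01 in L858R cells.

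**Figure D5:**
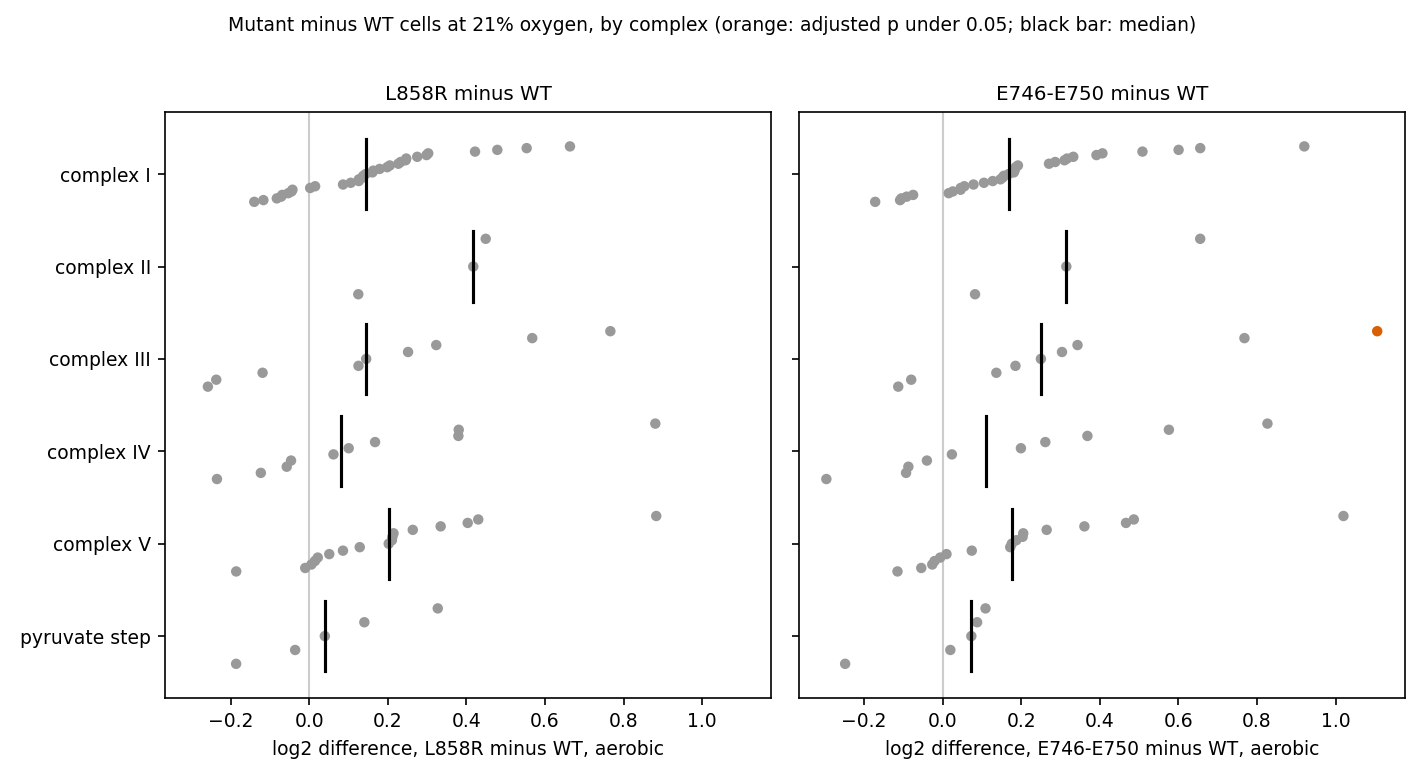
Log2 difference at 21% oxygen (x axis) of each tested gene, L858R minus WT and E746-E750 minus WT, by complex and at the pyruvate step (y axis), where orange marks an adjusted p under 0.05 and the black bar the median. Most points lie right of 0, with 58 and 60 of the 77 genes above it, and UQCRB at 1.11 in E746-E750 cells is the only orange point.

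Whether the response to hypoxia differed between the lines was tested by the difference of the responses. The L858R response was lower than the WT response for 3 genes, NDUFA2, NDUFB7 and UQCRB, and higher for 0, which is 3.9% of the 77, against 7.76% of all genes (4.34% higher and 3.41% lower). The E746-E750 response was lower for 2, NDUFB7 and UQCRB, and higher for 0, which is 2.6%, against 7.29% of all genes (4.34% higher and 2.96% lower). NDUFB7 had −2.16 ± 0.44 in L858R cells (adjusted p = 0.0232) and −1.90 ± 0.44 in E746-E750 cells (adjusted p = 0.0364). UQCRB had −1.07 ± 0.16 (adjusted p = 0.00625) and −0.88 ± 0.16 (adjusted p = 0.0138). NDUFA2, an accessory subunit of the peripheral arm, had −1.08 ± 0.26 in L858R cells (adjusted p = 0.0387). It read 11.89 and 11.35 in hypoxic and 12.16 and 12.16 in aerobic L858R cells, against 12.13 and 12.17 in hypoxic and 11.65 and 11.56 in aerobic WT cells. The UQCRB difference in L858R cells survived leaving out any 1 array. Its second probe gave 0.00 (adjusted p = 0.998). The call was also lost with the mean of the probes, with array weights and with only the arrays compared. The other 4 differences did not survive leaving out any 1 array. Those of NDUFA2 in L858R and of NDUFB7 in E746-E750 cells were lost without any 1 array other than the 2 L858R hypoxic ones (adjusted p up to 0.152 and 0.151). That of NDUFB7 in L858R cells was lost without any 1 aerobic or WT hypoxic array (adjusted p up to 0.106), and that of UQCRB in E746-E750 cells without either WT or E746-E750 aerobic array or the second replicate of WT or E746-E750 hypoxic cells (adjusted p up to 0.0794). The PDK3 response did not pass this test in L858R (0.30 ± 0.40) or E746-E750 cells (0.40 ± 0.40), where the standard error leaves room for differences in either direction. Without the 2 L858R hypoxic arrays the E746-E750 value of 0.40 was called (adjusted p = 0.0445). The L858R value was 0.83 without L858R hypoxic replicate 1 and −0.24 without replicate 2, each with 1 hypoxic L858R array left. Median centring turned the E746-E750 count to 10 higher and 0 lower. Under that scaling the median hypoxic difference of all genes in this line was 0.26, and the share of all genes called is not given here. Without the 2 L858R hypoxic arrays the E746-E750 count was 12 higher and 17 lower (39.8% of all genes called). The L858R count was 3 higher and 13 lower without L858R hypoxic replicate 2 (29.3% of all genes) and 19 higher and 35 lower without replicate 1 (62.5% of all genes).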

How the data were processed

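RNA from 12 samples was hybridised to Illumina bead arrays, 2 per group, per the labels. The authors deposited raw bead intensities, which were used here, and a log2 table that is quantile normalized, with a median of 3.11 on each array. How its background was treated is not given in the sources used. The deposited files hold no detection p or control probes, so intensities were corrected with normexp (offset 50), log2 transformed and quantile normalised. A probe counted as detected above percentile 99 of the noise peak mirrored about its mode. Of 47323 probes, 21261 were detected on at least 2 arrays, and of these 16023 were named. Of all probes 30113 had 1 gene, 8 had several and were left out, and 17202 had none. The brightest probe stood for each of 11926 genes. One limma model (version 3.58.1, R 4.3.3) with 6 group means and 6 residual degrees of freedom gave 2-sided p-values, adjusted by Benjamini-Hochberg, with calls under 0.05. The number of arrays limits the precision. On simulated data the fit was tested with known changes, and the outcome is not given here. The simulation drew independent normal noise with a common spread within each group. It therefore does not cover single outlying arrays, shared deviations or probes that part. Replicate numbers did not pair the samples across all groups: in the deviations of replicate 1, 4 of 15 pairs of groups correlated above 0.1 (range −0.203 to 0.749). The 0.749 was that of the L858R hypoxic and E746-E750 hypoxic groups, whose replicates deviated in a like way. Promoters were RefSeq's (GRCh38.p14). The genes and lists were chosen with earlier results of these data known. Named were the pyruvate genes, SDHA, SDHC, SDHD, set isoforms and, per complex and comparison, up to 3 called genes in each direction, and the other genes named were chosen after their values were seen. Fits without the 4 mutant hypoxic arrays were also added after seeing the data.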

Additional observations from a re-analysis of the deposited data

Results flagged for a closer look

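The response to hypoxia differed between a mutant line and WT for 3 genes, by the test of the difference of the responses in limma. In L858R cells the response minus the WT response was −1.08 ± 0.26 for NDUFA2 (adjusted p = 0.0387), −2.16 ± 0.44 for NDUFB7 (adjusted p = 0.0232) and −1.07 ± 0.16 for UQCRB (adjusted p = 0.00625). In E746-E750 cells it was −1.90 ± 0.44 for NDUFB7 (adjusted p = 0.0364) and −0.88 ± 0.16 for UQCRB (adjusted p = 0.0138). For UQCRB the second probe gave 0.00 in L858R and −0.02 in E746-E750 cells.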

How the results depend on the processing

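Counts of called genes among the 77 depended on which arrays set the spread. With only the arrays compared they were 0 in hypoxic L858R, 25 in hypoxic E746-E750 and 20 in hypoxic WT cells. Of all genes 0%, 51.9% and 41.5% were called there. The counts were 17 and 22 for aerobic L858R and E746-E750 cells against WT (16.4% and 22.4% of all genes). For the differences of their responses they were 0 and 26. Without the 2 L858R hypoxic arrays they were 38 in hypoxic E746-E750 and 19 in hypoxic WT cells (58.6% and 40.3% of all genes). The counts were then 9 and 15 in the aerobic comparisons (6.34% and 11.2% of all genes) and 29 for the E746-E750 response. Without the 4 mutant hypoxic arrays they were 27 in hypoxic WT cells and 13 and 19 in the aerobic comparisons. With array weights they were 3, 28 and 22 in hypoxic L858R, E746-E750 and WT cells (4.7%, 53.5% and 42.8% of all genes). The counts were then 16 and 20 in the aerobic comparisons and 1 and 24 for the responses. Median centring gave 27 in hypoxic E746-E750 cells (37.1% of all genes), 2 for aerobic E746-E750 cells (5.49%) and 10 for their response. The authors' processed values gave 2 in hypoxic WT cells, 0 for aerobic E746-E750 cells and 0 for their response. The mean of a gene's probes gave 13 in hypoxic E746-E750 cells and 0 for aerobic E746-E750 cells, and no background correction and no filter each gave 1 for aerobic L858R and 2 for aerobic E746-E750 cells. With 1 array left out at a time the counts ran from 4 to 58 in hypoxic L858R, 3 to 38 in hypoxic E746-E750 and 0 to 19 in hypoxic WT cells, 0 to 9 and 0 to 15 in the aerobic comparisons and 1 to 54 and 0 to 29 for the responses, where a lone array of a group was assumed to vary like the others. The sign turned for NDUFV3 in L858R (0.62) and E746-E750 cells (0.053) with its second probe, which also stood for it when detection on all arrays was asked, for UQCRB in L858R cells (0.28) and its response (0.0017) with the second probe, for SDHA in E746-E750 cells with the second probe (−2.67) or the mean of probes (−1.09), for PDHB in L858R cells without hypoxic replicate 2 (−0.55, against 0.61 without replicate 1) and for SDHD there without hypoxic replicate 1 (0.37, against −0.49 without replicate 2). With the replicate block the counts were 14, 8 and 3 in hypoxic L858R, E746-E750 and WT cells, 0 and 1 in the aerobic comparisons and 2 and 2 for the responses. The block ended the call of NDUFB2 in hypoxic WT cells (adjusted p = 0.0543) and of NDUFA2 for the L858R response (adjusted p = 0.0531), and it ended no other call. In hypoxic L858R cells 12 of the 14 calls were shared with the main fit, and SDHC was among the added ones (adjusted p = 0.0488). The causes were not tested. Genes near the noise, PDK1 and PDK2 among them, have little signal over background.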
